A study of Mus musculus with 18 samples.

Results

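Cdon, Boc, Gas1, Hhip, Disp1, Sufu and Shh, 7 genes that bind, release or restrain hedgehog signal, were followed through the growth plate of cultured mouse tibiae. Every probe set that the platform annotation assigns to exactly 1 of these symbols was taken, which gave 19 of the 45037 probe sets that are not controls. Of these, 15 passed the filter on low signal, and each gene kept at least 1. The tibiae came from CD1 mouse embryos of both sexes at stage E15.5 and were kept for 6 days in a minimal medium, with treatment on days 1, 3 and 5. The treated cultures received C-type natriuretic peptide (CNP, 1e-06 M), a peptide hormone that raises cyclic GMP in chondrocytes and is known to promote bone growth, and the control cultures received its vehicle, albumin in dilute acid. Each bone was then cut under a microscope into a resting/proliferating (R/P), a hypertrophic (H) and a mineralized (M) piece, and pieces of the same zone were combined for RNA, with 24 tibiae going into each treatment. Vehicle and CNP cultures each carry the numbers 2, 3 and 4 in their titles, so that 18 arrays form 6 groups of 3 (R/P, H and M, each with vehicle or CNP), and the 3 zones of a culture share their bones. No genetic alteration is named for any group. The array titled vehicle R/P number 4 carries a treatment field that reads CNP, and its title was used. The instrument logs of 4 arrays, vehicle number 2 in all zones and CNP R/P number 2, note an aborted step, and these arrays were kept.

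Hedgehog ligands are lipid-modified secreted proteins. They bind the receptor Ptch1, which otherwise holds the membrane protein Smo inactive, and active Smo lets Gli transcription factors reach the nucleus. Cdon, Boc and Gas1 are cell-surface proteins that bind the ligand together with Ptch1 and promote its reception, while Hhip binds it without passing on a signal and is itself a gene that hedgehog signal turns on. Disp1 releases the ligand from the cell that makes it, and Sufu holds Gli proteins in the cytoplasm. In the growth plate the ligand is chiefly Ihh, made by chondrocytes that are about to enlarge, whereas Shh is best known from the early limb bud.

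The zone labels were set beside marker genes, which did not all follow them. Col10a1, the collagen of hypertrophic cartilage, had a mean normalized signal of 1230 in vehicle R/P, 7568 in vehicle H and 567 in vehicle M arrays. Acp5, an osteoclast enzyme, had means of 342, 1144 and 7555 in the same order. Other hypertrophic markers differed in their order. Ihh, Mmp13 and Panx3 were also highest in vehicle H, Mmp13 with means of 7126 in H and 6622 in M. Alpl (602, 2542 and 4846) and Ibsp (1995, 6528 and 7164) were highest in M. Markers of resting and proliferating chondrocytes (11 genes) summed to 54460 to 66150 in vehicle R/P. Their sum was higher in vehicle H (67500 to 77290) and lower in M (23060 to 30460). The summed signal of 11 genes of perichondrium, tendon and fibroblasts lay between 40440 and 43600 in vehicle R/P, 31590 and 33730 in vehicle H, and 32190 and 35810 in vehicle M arrays, so that signal of these markers was present in every zone. Summed markers of endothelium (8 genes) ran from 947 to 1058, from 620 to 659 and from 3675 to 3962, and those of macrophages (8 genes) from 1241 to 1876, from 2013 to 2622 and from 12000 to 13200. Pecam1, a defining endothelial gene, was at means of 22.3 and 17.5 in vehicle R/P and H, below the filter level of 68.3, and at 220 in M. Tek, Tie1 and Flt1 were also below that level in vehicle R/P and H. Kdr (277 and 174), Egfl7 (265 and 162) and Emcn (157 and 114) were above it in both, and Cdh5 was at 167 and 66.05. RNA quality, read as the signal of the actin control at its 3′ end over that at its 5′ end, was 2.20 to 4.85 in R/P and H arrays and 1.59 to 1.87 in M arrays. In pooled pieces fewer cells of a type and less RNA per cell cannot be told apart.

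The stretch before the start of the gene is shown for a co-receptor that fell steadily from R/P to M (Cdon), for one that fell and then returned (Gas1), and for the antagonist whose probe sets were lower with CNP without passing the test (Hhip). The RefSeq promoter table (GRCm38.p6) held 5 of the 7 genes, and Boc and Shh were not analysed here. Each window is the 250 bases that end at the gene's start, given 5′ to 3′ on the gene's own strand. Cdon lies on the plus strand at chr9:35451826-35452075, Gas1 on the minus strand at chr13:60177536-60177785 and Hhip on the minus strand at chr8:80058009-80058258.
Cdon: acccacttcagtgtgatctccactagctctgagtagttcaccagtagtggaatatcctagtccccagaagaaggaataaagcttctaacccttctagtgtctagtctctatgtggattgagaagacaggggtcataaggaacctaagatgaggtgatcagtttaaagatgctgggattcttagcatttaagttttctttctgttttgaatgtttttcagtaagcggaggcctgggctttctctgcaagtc
Gas1: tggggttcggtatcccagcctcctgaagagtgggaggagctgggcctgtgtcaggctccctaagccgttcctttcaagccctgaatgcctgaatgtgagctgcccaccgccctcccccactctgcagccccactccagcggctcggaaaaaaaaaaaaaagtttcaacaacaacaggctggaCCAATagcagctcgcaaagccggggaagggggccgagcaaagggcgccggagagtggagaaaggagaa
Hhip: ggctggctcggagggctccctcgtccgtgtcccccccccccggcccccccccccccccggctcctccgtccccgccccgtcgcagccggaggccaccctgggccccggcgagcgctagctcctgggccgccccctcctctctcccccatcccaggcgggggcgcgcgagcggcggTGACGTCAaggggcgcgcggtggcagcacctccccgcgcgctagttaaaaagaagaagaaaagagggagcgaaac
Capitals mark a match on either strand to a Gli site (GACCACCCA), a full cyclic AMP response element (TGACGTCA), a CCAAT box (CCAAT) or a TATA box (TATAAA), motifs that do not overlap here. The Hhip window held TGACGTCA once, beginning 75 bases before the start, and 1.55% of the 32851 windows of this length in the table held it. The Gas1 window held CCAAT once, beginning 68 bases before the start, and 33.8% of all windows held it. None of the 4 motifs was found in the Cdon window. GACCACCCA was found in none of the windows of the 5 genes and in 0.225% of all windows, and TATAAA in none of them and in 12.4% of all. The base composition differed, with 76% G or C for Hhip, 58.8% for Gas1 and 42.8% for Cdon. The motifs were chosen with the expression values known, and a match is a description of the letters only.

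The first question was how these genes are distributed over the zones in the control bones. From R/P to H cartilage of vehicle cultures the 3 co-receptors fell together and the releaser Disp1 rose. With an adjusted p under 0.05 in limma as the call, 3 of the 15 tested probe sets were higher in H and 5 were lower, against 10.1% and 8.99% of the 27022 probe sets tested over the whole array. From H to M, 3 were higher and 4 lower, against 11.9% and 12.2% of all. Between M and R/P, 6 passed, all of them lower in M, against 31.4% of all in either direction. The median log2 difference of the 15 was -0.41 for H minus R/P and -0.70 for M minus R/P, beside -0.02 and -0.04 over all tested probe sets. All differences below are log2 differences of normalized signal with the standard error of the fit, and adjusted p-values are Benjamini-Hochberg over all tested probe sets.

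**Figure D1:**
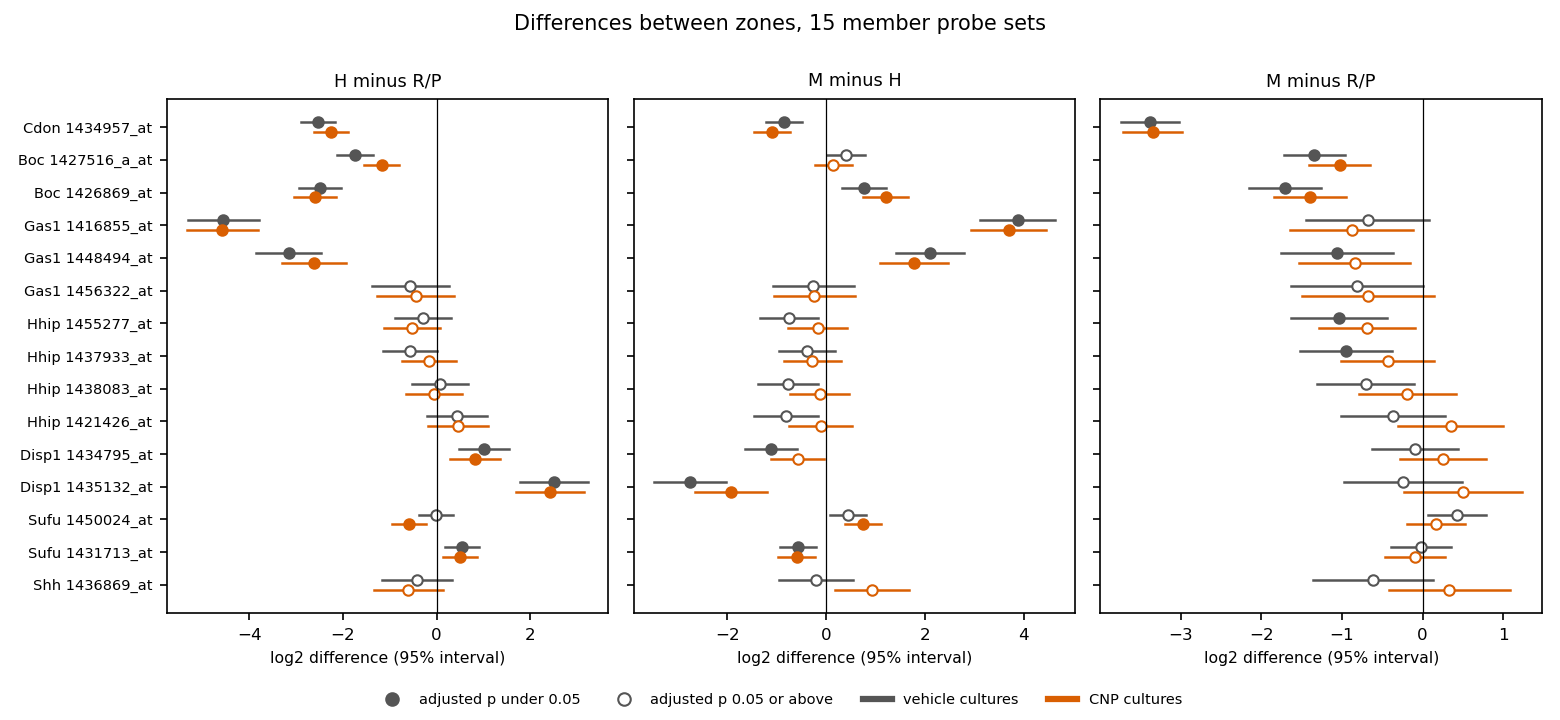
Log2 differences between zones for the 15 tested probe sets (points) with 95% intervals (bars), in vehicle (grey) and CNP (orange) cultures, filled where the adjusted p was under 0.05. Cdon, both Boc probe sets and 2 of the 3 Gas1 probe sets lie left of 0 for H minus R/P, with Gas1 1416855_at at -4.56 in vehicle cultures, and Disp1 lies right of 0.

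Cdon, a co-receptor with immunoglobulin and fibronectin repeats, was the member with the most graded pattern. Its probe set 1434957_at read 2751, 2997 and 3568 in vehicle R/P cultures 2, 3 and 4, then 520, 556 and 487 in H, and 376, 238 and 250 in M. The groups did not overlap at any step: every R/P array was above every H array, and every H array above every M array. As mean ± SD (n = 3 each) this was 3106 ± 419, 521 ± 34.1 and 288 ± 76.3. The difference was -2.53 ± 0.17 for H minus R/P (a 5.79-fold lower signal, adjusted p = 1.1e-07) and -3.38 ± 0.17 for M minus R/P (10.4-fold, adjusted p = 1.7e-09). The smaller step from H to M was -0.85 ± 0.17 (adjusted p = 0.0018), and it missed the threshold without the cultures of number 3 (-0.69, adjusted p = 0.076) and with no normalization (-0.35, adjusted p = 0.50). The dim probe set 1421452_at, which the filter left out, had means of 58.9, 8.23 and 9.43 in the same 3 groups.

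Boc, the close relative of Cdon, fell from R/P to H and then stood slightly higher in M. Its probe set 1427516_a_at read 802, 994 and 944 in vehicle R/P, 269, 231 and 285 in H, and 325, 342 and 385 in M. Its second probe set, 1426869_at, read 531, 787 and 772, then 94.7, 132 and 105, then 217, 178 and 203. In both, the R/P arrays were the highest, the H arrays the lowest, and the M arrays lay between them with no overlap. H minus R/P was -1.74 ± 0.18 (3.34-fold lower, adjusted p = 6.7e-06) and -2.49 ± 0.21 (5.60-fold lower, adjusted p = 1.0e-06). M minus R/P was -1.34 ± 0.18 (adjusted p = 3.6e-05) and -1.71 ± 0.21 (adjusted p = 1.7e-05). The step up from H to M passed for 1426869_at (0.78 ± 0.21, adjusted p = 0.013) and did not for 1427516_a_at (0.40 ± 0.18, adjusted p = 0.12). The call on 1426869_at was lost without vehicle H number 2 (0.75, adjusted p = 0.054), vehicle H number 4 (0.70, adjusted p = 0.076) or vehicle M number 2 (0.58, adjusted p = 0.12). The probe set 1427517_at stayed between 4.1 and 60.1 in all 18 arrays and was not tested.

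Gas1, a co-receptor held in the membrane by a lipid anchor, had a gap in the hypertrophic zone and returned in the mineralized one. Its probe set 1416855_at read 3706, 3235 and 3481 in vehicle R/P, 62.7, 336 and 101 in H, and 2198, 1993 and 2287 in M. Even the highest H array, number 3, was far below the lowest M array. H minus R/P was -4.56 ± 0.36 (23.6-fold lower, adjusted p = 5.1e-07) and M minus H was 3.88 ± 0.36 (14.7-fold higher, adjusted p = 1.6e-06). M minus R/P was -0.68 ± 0.36 (adjusted p = 0.17), with a 95% interval from -1.44 to 0.08.

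The second Gas1 probe set, 1448494_at, had the same order. It read 1103, 1921 and 980 in vehicle R/P, 176, 124 and 96.2 in H, and 306, 827 and 863 in M. Here H minus R/P was -3.16 ± 0.32 (adjusted p = 7.0e-06), M minus H was 2.10 ± 0.32 (adjusted p = 0.00021) and M minus R/P was -1.06 ± 0.32 (adjusted p = 0.021). The last of these calls was lost without vehicle R/P number 2 (-1.03, adjusted p = 0.079), vehicle R/P number 3 (-0.87, adjusted p = 0.11) or vehicle M number 2 (-0.54, adjusted p = 0.21). The third probe set, 1456322_at, did not show the pattern: it read between 27.8 and 255 in the 18 arrays, correlated with the other Gas1 probe sets at r = 0.101 and 0.103, and passed in no comparison with all arrays. Without vehicle M number 3 it passed for M minus R/P (-1.43, adjusted p = 0.0082). Calls on Gas1 therefore rest on 2 of its 3 probe sets.

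**Figure D2:**
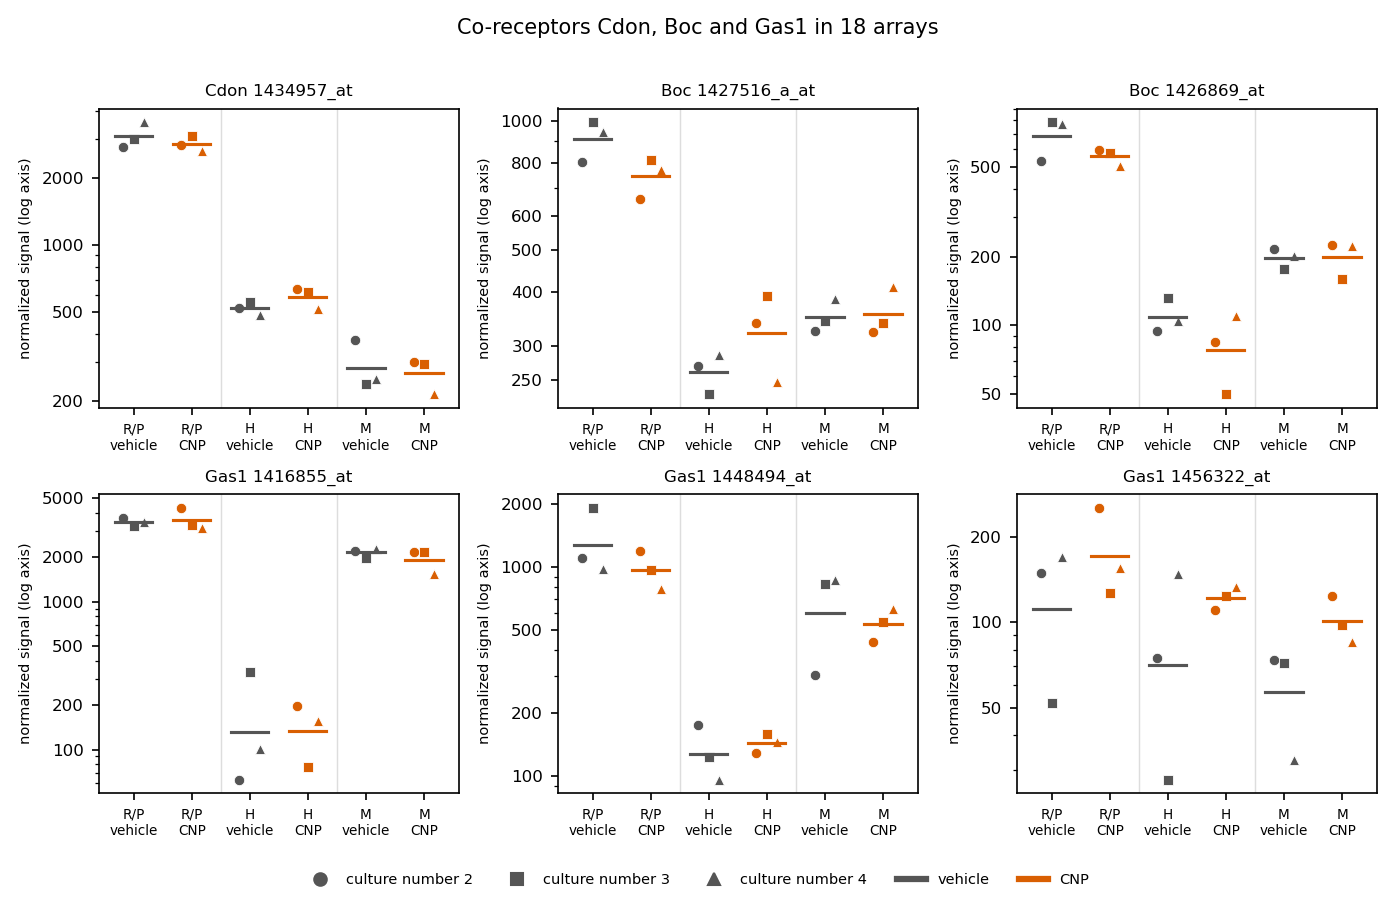
Normalized signal on a log axis of the 6 tested probe sets of Cdon, Boc and Gas1, by zone and treatment (3 arrays per group, symbols for the culture number, bars for the mean on the log scale). Cdon steps down from R/P to H to M, Boc is below its R/P level in H and M, and Gas1 1416855_at falls to between 62.7 and 336 in H and returns to between 1993 and 2287 in vehicle M.

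Cell markers and RNA quality moved along the same steps. Of the tested perichondrium, tendon and fibroblast markers 6 of 11 were lower in vehicle H than in R/P and 0 higher, and of the endothelial ones 3 of 6 were lower. Other lists rose in this step, with 7 of 7 osteoclast, 6 of 6 osteoblast and 6 of 6 hypertrophic markers higher. Of 7 macrophage markers 3 were higher and 1 lower. Of 11 markers of resting and proliferating chondrocytes 2 were higher and 0 lower, with a median difference of 0.15. Over all tested probe sets 10.1% were higher and 8.99% lower. From H to M 6 of 6 endothelial, 6 of 7 macrophage and 7 of 7 osteoclast markers were higher, while 10 of 11 markers of resting and proliferating chondrocytes were lower. Over all tested probe sets 11.9% were higher and 12.2% lower in this step. Pecam1 and Ocstamp (vehicle means of 8.1 in R/P, 39.9 in H and 895 in M) passed the filter only through their M arrays. Their part in these marker counts is therefore a description. The part of cell markers and RNA quality in the zone differences of Cdon, Boc and Gas1 was not tested.

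Disp1, which releases lipid-bearing ligand from producing cells, was highest in the hypertrophic zone. Its probe set 1435132_at read 64.4, 17.9 and 13.0 in vehicle R/P, 266, 217 and 209 in H, and 16.2, 35.6 and 12.7 in M. The H arrays stood clear of both other zones, where all values were below the filter level of 68.3. This probe set passed the filter only through its H arrays and so had to differ: its differences of 2.52 ± 0.34 for H minus R/P and -2.76 ± 0.34 for M minus H are a description, with no fold against values that low, and its calls in the counts above support nothing. The brighter probe set 1434795_at read 211, 238 and 229, then 674, 432 and 364, then 223, 207 and 202. Again no H array overlapped with another zone, and the H value of number 2 was the highest. H minus R/P was 1.02 ± 0.25 (adjusted p = 0.0097) and M minus H was -1.11 ± 0.25 (adjusted p = 0.0043). The rise from R/P to H lost its call without vehicle R/P number 2 (0.83, adjusted p = 0.074) or vehicle H number 2 (0.77, adjusted p = 0.090). M minus R/P was -0.10 ± 0.25 and -0.24 ± 0.34, neither past the threshold. Ihh, the ligand of the growth plate, had means of 233, 1591 and 251 in the same groups, and was thus also highest in H.

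Hhip, the decoy receptor, is read by 4 probe sets, and all were tested. The brightest, 1455277_at, read 448, 481 and 648 in vehicle R/P, 340, 449 and 492 in H, and 181, 281 and 284 in M. The R/P and H arrays overlapped, and every M array was below both. The probe set 1437933_at read 457, 525 and 393, then 249, 370 and 302, then 302, 224 and 174. M minus R/P was -1.04 ± 0.28 (2.06-fold lower, adjusted p = 0.0098) and -0.95 ± 0.27 (adjusted p = 0.014) for these probe sets. It was -0.70 ± 0.28 (adjusted p = 0.071) for 1438083_at and -0.37 ± 0.30 (adjusted p = 0.40) for 1421426_at. No Hhip probe set passed between R/P and H, where the differences ran from -0.56 to 0.44. From H to M they ran from -0.39 to -0.80, with adjusted p-values of 0.060 and above. Without vehicle M number 3 the H to M difference of 1421426_at passed (-1.08, adjusted p = 0.044).

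The Hhip calls were not stable. That on 1455277_at was lost without vehicle R/P number 2 (-0.97, adjusted p = 0.053) or vehicle M number 2 (-0.97, adjusted p = 0.052). That on 1437933_at was lost without vehicle R/P number 3 (-0.91, adjusted p = 0.054), vehicle M number 3 (-0.82, adjusted p = 0.084) or vehicle M number 4 (-0.82, adjusted p = 0.078). Among the 4 probe sets the correlations over the 18 arrays ran from 0.27 to 0.753.

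Sufu, the cytoplasmic brake on Gli proteins, gave probe sets that contradicted each other. The brighter one, 1450024_at, read 324, 297 and 325 in vehicle R/P, 327, 341 and 272 in H, and 572, 397 and 350 in M. R/P and H overlapped and M was the highest, and no vehicle zone comparison passed (M minus H 0.44 ± 0.17, adjusted p = 0.071), although M minus R/P did without vehicle R/P number 4 (0.57, adjusted p = 0.046). The dimmer one, 1431713_at, read 94.2, 102 and 99.8, then 168, 132 and 156, then 91.8, 101 and 99.1, which puts H on top. Its differences of 0.55 ± 0.17 for H minus R/P (adjusted p = 0.039) and -0.56 ± 0.17 for M minus H (adjusted p = 0.027) passed, but kept the call in 4 of 18 and 6 of 17 alternatives. These probe sets correlated at r = -0.707 over the 18 arrays, so no zone order is given for Sufu. The third, 1420848_at, stayed between 6.64 and 82.5 and was not tested.

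Shh showed no zone difference that passed. Its probe set 1436869_at read 744, 591 and 1728 in vehicle R/P, 831, 546 and 699 in H, and 468, 507 and 872 in M. The 3 groups overlapped, and the R/P array of number 4 stood alone at the top. H minus R/P was -0.41 ± 0.35 (95% interval -1.16 to 0.33) and M minus R/P was -0.61 ± 0.35 (-1.36 to 0.13). The other Shh probe set, 1427571_at, never exceeded 53.8, was not tested, and correlated with the first at r = -0.391. With a single tested probe set and no detection calls in the table, these values are those of the probe set.

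**Figure D3:**
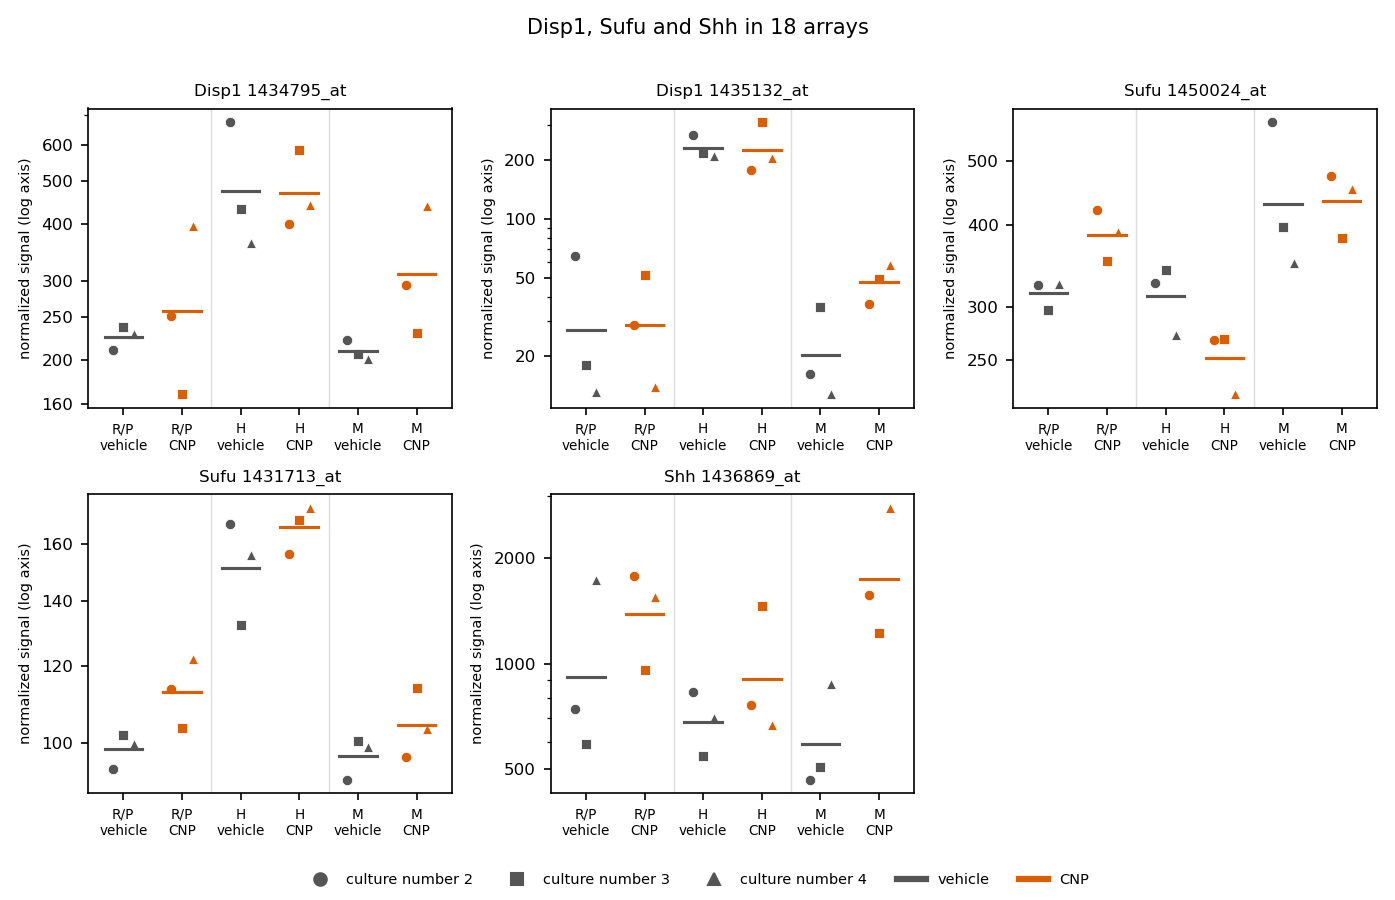
Normalized signal on a log axis of the tested probe sets of Disp1, Sufu and Shh in the 18 arrays (symbols for the culture number, bars for the mean on the log scale). Disp1 1435132_at lies between 177 and 311 in H and at or below 64.4 in the other zones, the Sufu probe sets run against each other, and Shh 1436869_at in M lies at 1219 to 2773 with CNP and 468 to 872 with vehicle.

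The same zone comparisons were made inside the CNP cultures, which are separate bones. H minus R/P gave 3 higher and 6 lower members, against 12.6% and 12.7% of all tested probe sets. M minus H gave 4 higher and 3 lower, against 16.2% and 16.8%. M minus R/P gave 0 higher and 3 lower, against 18.3% and 18.9%. Cdon 1434957_at read 2819, 3102 and 2653 in R/P, 639, 615 and 518 in H, and 299, 293 and 214 in M, and its steps were -2.25 ± 0.17 and -1.10 ± 0.17. Gas1 1416855_at read 4337, 3332 and 3137, then 196, 76.3 and 156, then 2164, 2158 and 1537, with steps of -4.58 ± 0.36 and 3.70 ± 0.36. These were the same orders as in vehicle cultures, again without overlap between neighbouring zones.

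For Boc, H minus R/P in CNP cultures was -1.17 ± 0.18 and -2.60 ± 0.21 for 1427516_a_at and 1426869_at. For Disp1 it was 2.42 ± 0.34 for 1435132_at, again a description, and 0.83 ± 0.25 (adjusted p = 0.024) for 1434795_at, and the latter was lost without CNP R/P number 3 (0.57, adjusted p = 0.15) or CNP H number 3 (0.43, adjusted p = 0.20). M minus H was -1.92 ± 0.34 for 1435132_at and -0.57 ± 0.25 (adjusted p = 0.095) for 1434795_at, which passed without CNP H number 4 (-0.89, adjusted p = 0.018). No Hhip or Shh probe set passed in a zone comparison of the CNP cultures. Some did with 1 array left out: without CNP M number 3, M minus R/P was -1.12 (adjusted p = 0.0037) for Hhip 1455277_at, -0.89 (adjusted p = 0.0076) for 1437933_at and -1.16 (adjusted p = 0.041) for Gas1 1416855_at, and M minus H was -0.74 (adjusted p = 0.026) for 1437933_at and 1.23 (adjusted p = 0.033) for Shh. Without CNP H number 3, H minus R/P was 0.97 (adjusted p = 0.016) for Hhip 1421426_at and -1.20 (adjusted p = 0.011) for Shh, and M minus H was -0.65 (adjusted p = 0.045) for Hhip 1455277_at and 1.53 (adjusted p = 0.0015) for Shh. Sufu 1450024_at was lower in H than in R/P (-0.59 ± 0.17, adjusted p = 0.018) and higher in M than in H (0.75 ± 0.17, adjusted p = 0.0029), while 1431713_at passed in the opposite directions (0.50 ± 0.17, adjusted p = 0.046, and -0.60 ± 0.17, adjusted p = 0.015). The first of these 4 calls was lost without any of 4 single CNP arrays (lowest size -0.49, without H number 4), and the 1431713_at call from R/P to H kept in 2 of 17 alternatives.

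The second question was what CNP did to these genes. No member passed the test in any zone or in the mean of the zones. In R/P, 0 of 15 member probe sets were called, with 0.0259% of all tested probe sets called in either direction. In H, 0 of 15 were called beside 1.7% of all, in M 0 of 15 beside 0.0037%, and in the mean of the zones over the 6 cultures 0 of 15 beside 0.0148%. The lowest adjusted p among the members was 0.31, 0.27, 0.68 and 0.19 in these 4 comparisons. At an unadjusted p under 0.05 there were 2, 3, 2 and 6 of the 15 member probe sets, beside 12.1%, 13.9%, 3.38% and 11.6% of all tested. The 6 in the mean of the zones were the 4 of Hhip, Gas1 1456322_at and Shh. Arrays of the 2 treatments did not overlap for 4 member probe sets in R/P, for 3 in H and for 4 in M, and the same was true of 13.9%, 17.4% and 10.3% of all tested probe sets.

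For Cdon and the Gas1 probe set 1416855_at the CNP differences were small beside their zone differences. Cdon differed by -0.11 ± 0.18 in R/P, 0.17 ± 0.18 in H and -0.08 ± 0.18 in M, and all 3 of its 95% intervals lay between -0.48 and 0.54. Gas1 1416855_at differed by 0.04 ± 0.38, 0.02 ± 0.38 and -0.16 ± 0.38, with the widest interval from -0.95 to 0.63. Boc 1427516_a_at differed by -0.29 ± 0.17, 0.28 ± 0.17 and 0.03 ± 0.17, with arrays of 659, 809 and 769 in CNP R/P, 339, 392 and 247 in CNP H, and 323, 340 and 412 in CNP M. Its R/P values with CNP were lower than vehicle in 3 of 3 pairs of the same number, but the groups overlapped. The other Boc probe set, 1426869_at, differed by -0.30 ± 0.22, -0.42 ± 0.22 and 0.01 ± 0.22, opposite in sign to the first in H.

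The other Gas1 probe sets did not run alike. For 1448494_at the differences were -0.39 ± 0.32, 0.15 ± 0.32 and -0.18 ± 0.32. For 1456322_at they were 0.56 ± 0.42, 0.67 ± 0.42 and 0.69 ± 0.42, as large as its own zone difference of -0.56 ± 0.38 for H minus R/P in vehicle cultures. In the mean of the zones 1456322_at was 0.64 ± 0.23 (unadjusted p = 0.018, adjusted p = 0.33), with no overlap between the cultures and higher in 3 of 3 of the same number.

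Hhip was lower with CNP in cartilage by all 4 probe sets, without a call. In CNP R/P 1455277_at read 419, 381 and 331, each below the lowest vehicle array of 448, and 1438083_at read 116, 141 and 138 against 185, 215 and 223. In CNP H 1455277_at read 328, 152 and 334 against 340, 449 and 492, and 1421426_at read 175, 93.7 and 179 against 238, 261 and 215. These 4 sets of arrays did not overlap, and those of the remaining Hhip probe sets in the same zones did. In R/P the differences ran from -0.45 to -0.76, with adjusted p-values from 0.31 to 0.55. In H they ran from -0.35 to -0.72, with adjusted p-values from 0.27 to 0.67.

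In the mineralized zone the Hhip differences ran from -0.24 to 0.03 and the arrays overlapped for all 4 probe sets. Averaged over the zones of each culture they were -0.41 ± 0.15, -0.45 ± 0.17, -0.47 ± 0.16 and -0.44 ± 0.13, with adjusted p-values from 0.28 to 0.36. The probe sets measure the same gene in the same RNA and are not independent of each other. Without CNP H number 4, 1438083_at in H was called (-1.18, adjusted p = 0.012). With the culture number as a block no Hhip value passed.

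RNA quality moved with CNP in the same zones. The actin ratio of CNP arrays 2, 3 and 4 was 4.76, 2.56 and 4.85 in R/P against 3.05, 2.44 and 2.63 with vehicle, and 3.93, 2.54 and 2.39 in H against 2.20, 2.37 and 2.28, where the treatments did not overlap. Without the 3 arrays of highest ratio (CNP R/P numbers 2 and 4 and CNP H number 2) the Hhip differences ran from -0.21 to -1.28 in R/P, where 1 CNP array was left, and from -0.56 to -0.85 in H, with no call. Without CNP H number 3, the lowest CNP H array for all 4 probe sets, those in H ran from -0.13 to -0.42.

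**Figure D4:**
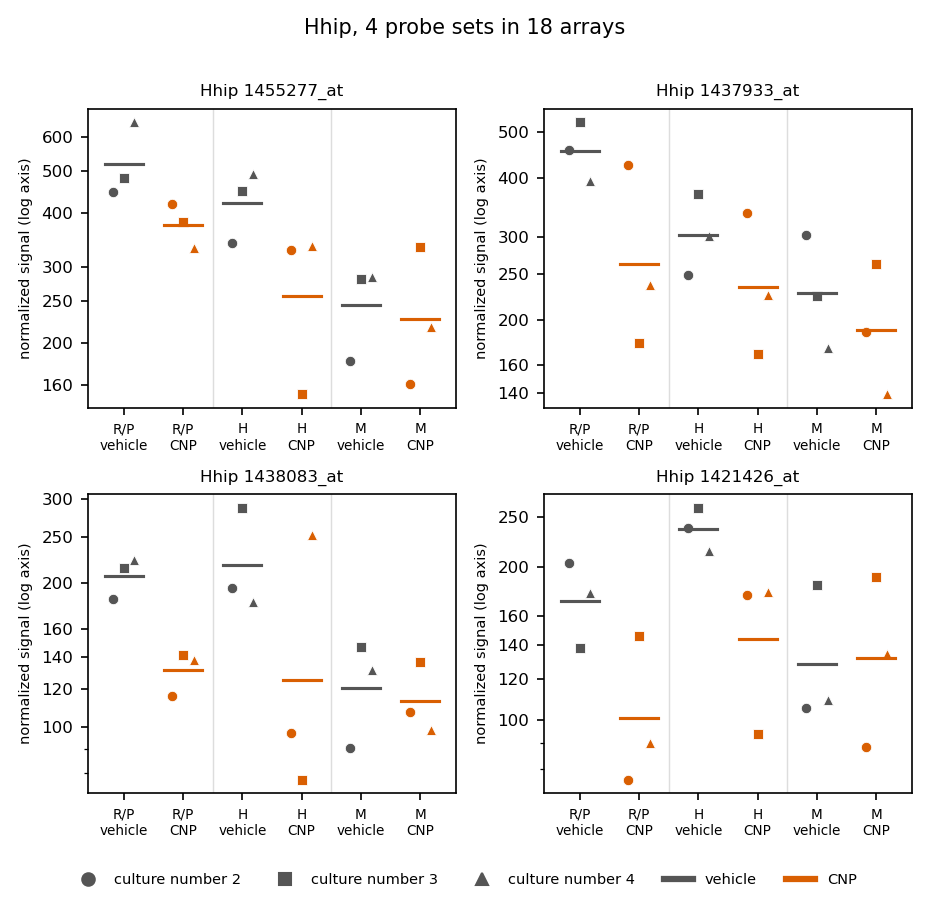
Normalized signal on a log axis of the 4 Hhip probe sets in the 18 arrays (symbols for the culture number, bars for the mean on the log scale). With CNP the means are lower in R/P and H for each probe set, with overlap for some, and in M vehicle and CNP arrays mix.

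Shh 1436869_at had the largest CNP difference of the 15 in the mineralized zone. It read 1565, 1219 and 2773 with CNP against 468, 507 and 872 with vehicle, so that every CNP array was above every vehicle array. The difference was 1.53 ± 0.38 (a 2.90-fold higher signal, unadjusted p = 0.00083, adjusted p = 0.68). In R/P and H it was 0.59 ± 0.38 and 0.40 ± 0.38, with overlapping arrays. The overlap in R/P rested on vehicle number 4, the array whose treatment field reads CNP: without it the vehicle arrays were below all 3 CNP arrays and the difference was 1.04 (adjusted p = 0.38). Without the 3 arrays of highest actin ratio the R/P difference was 0.07, and without CNP H number 3 the H difference was 0.06. In the mean of the zones it was 0.84 ± 0.19 (adjusted p = 0.19), higher in 3 of 3 cultures of the same number.

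Disp1 with CNP was close to vehicle in H, at -0.01 ± 0.27 for 1434795_at and -0.03 ± 0.37 for 1435132_at. In M it read 293, 231 and 439 against 223, 207 and 202 for 1434795_at, and 36.8, 49.2 and 58.4 against 16.2, 35.6 and 12.7 for 1435132_at. Neither probe set overlapped between the treatments there, and the differences of 0.53 ± 0.27 and 0.81 ± 0.37 had an adjusted p of 1.00 each. The arrays of 1435132_at in M were below the filter level in both treatments. Sufu 1450024_at was 0.28 ± 0.18 in R/P (421, 352 and 390 with CNP, no overlap) and -0.29 ± 0.18 in H (268, 268 and 222 with CNP, no overlap), and neither passed.

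**Figure D5:**
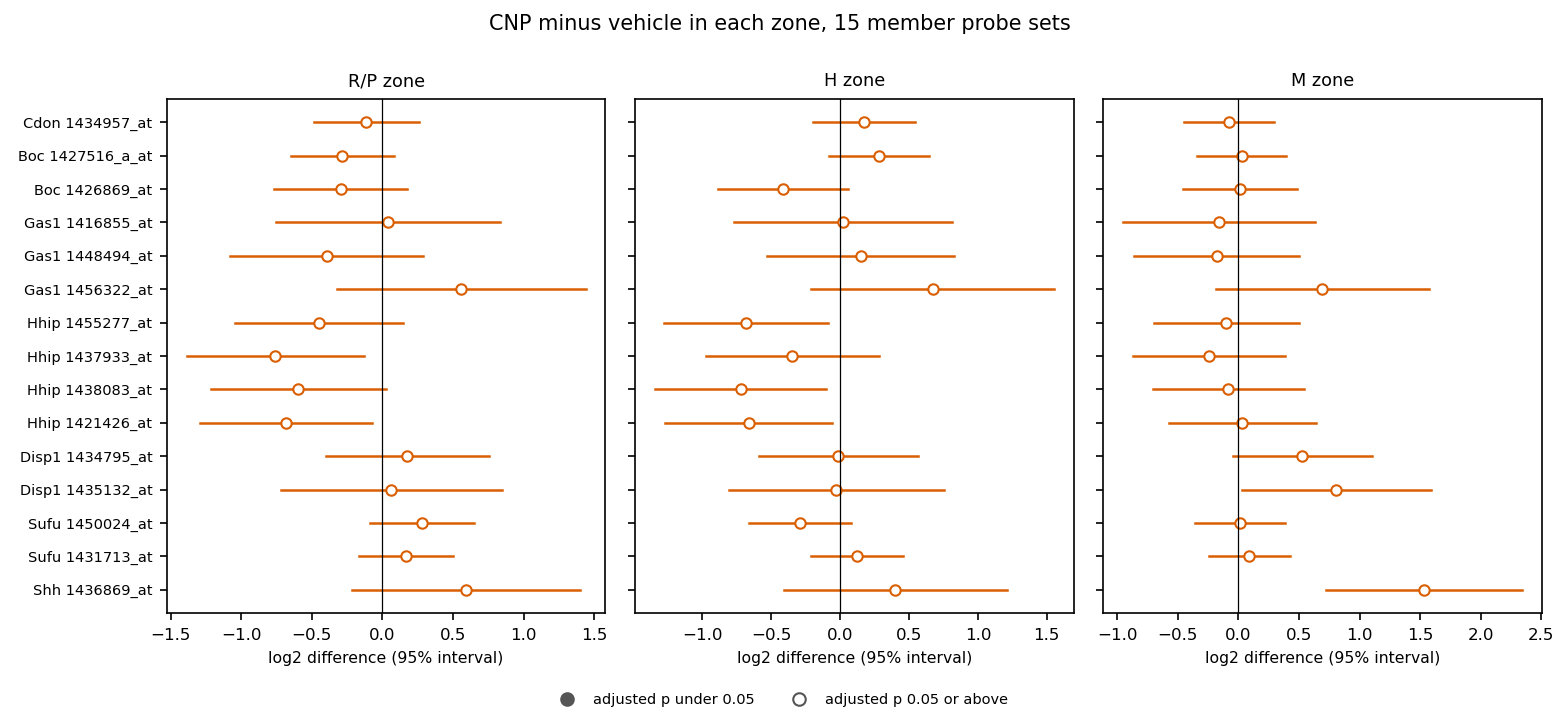
Log2 differences of CNP minus vehicle for the 15 tested probe sets in each zone (points) with 95% intervals (bars). All points are open because no adjusted p was under 0.05, the 4 Hhip points lie left of 0 in R/P and H, and Shh in M lies at 1.53.

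Whether the response to CNP differed between zones was tested as an interaction. For H against R/P, 0 of 15 members were called and 0.174% of all, for M against H 0 of 15 and 0.0777%, and for M against R/P 0 of 15 and 0%. At an unadjusted p under 0.05 there were 2, 1 and 0 member probe sets, beside 10.5%, 7.55% and 7.46% of all. These 3 were 1.13 ± 0.50 for Shh in M against H (95% interval 0.08 to 2.19, adjusted p = 0.63), 0.57 ± 0.25 for Boc 1427516_a_at in H against R/P (adjusted p = 0.45) and -0.58 ± 0.24 for Sufu 1450024_at in H against R/P (adjusted p = 0.42). Other members had larger values than the last 2 of these with wider errors, such as 0.84 ± 0.48 for Disp1 1435132_at in M against H and 0.94 ± 0.50 for Shh in M against R/P. For Cdon the interval of H against R/P was -0.23 to 0.80, and for Gas1 1416855_at it was -1.09 to 1.06.

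The rest of the pathway was described by lists that hold none of the members. Beside the counts of all these lists stand the shares over all tested probe sets in vehicle cultures. In H against R/P 10.1% were higher and 8.99% lower, and in M against H 11.9% and 12.2%. In M against R/P 31.4% were called in either direction. A count near these shares is not read as a result about a list. Among ligands, receptors and transcription factors, 7 of 8 were tested. In vehicle H against R/P 1 of 7 was higher, Ihh by 2.67 ± 0.21, and 3 were lower, with Gli2, an activator among the Gli proteins, at -1.20 ± 0.18. Another Gli2 probe set gave -0.81 (adjusted p = 0.051). The median of the list was -0.38, beside -0.02 over all tested probe sets. In M against H only Ihh passed, at -2.55 ± 0.21. In M against R/P 3 of 7 were lower, with Gli3 at -0.95 ± 0.21 and Smo, the signal transducer, at -0.87 ± 0.16, and the Gli3 call was lost without the cultures of number 3 (adjusted p = 0.064) or of number 4 (adjusted p = 0.071).

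Among genes of ligand processing, release and binding, 10 of 10 were tested. In H against R/P 1 was higher and 3 lower. Scube2, a secreted carrier that works with Disp1, fell by 2.06 ± 0.35, and Scube1 was higher by 1.16 ± 0.29. Scube2 passed the filter mainly through its R/P arrays (vehicle means of 386 in R/P, 80.2 in H and 38.4 in M). Its differences here and in M against R/P are therefore a description. The Scube1 call was lost without vehicle R/P number 4 (1.02, adjusted p = 0.071) or vehicle H number 2 (0.82, adjusted p = 0.11). In M against H 2 were higher and 3 lower, with Gpc3, a heparan sulfate proteoglycan that binds hedgehog, at -1.13 ± 0.19 and Scube3 at -1.01 ± 0.21. In M against R/P 1 was higher and 4 lower, with Scube2 at -2.85 ± 0.35 and Gpc3 at -1.41 ± 0.19.

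Of 20 cytoplasmic and ciliary regulators 18 were tested. In H against R/P 1 was higher and 1 lower. Gsk3b, a kinase that phosphorylates Gli proteins, was higher by 1.71 ± 0.18, and all 5 of its other tested probe sets were called higher too (1.11 to 2.70). Evc2, a ciliary protein, was at -0.57 ± 0.15, a call that 11 of 18 alternatives lost. In M against H 2 were higher and 3 lower, with Ift88, a ciliary transport protein, at -1.08 ± 0.15 and Gsk3b at -1.03 ± 0.18. Of the 5 other Gsk3b probe sets 4 were lower there too, and 1 was not called (-0.25, adjusted p = 0.49). In M against R/P 3 were higher and 4 lower, with Ift88 at -1.28 ± 0.15 and Prkaca, a subunit of protein kinase A, at 1.03 ± 0.20. Another Prkaca probe set gave 0.22 (adjusted p = 0.68).

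Of 15 genes known as hedgehog-responsive 9 were tested. In H against R/P 1 was higher and 2 lower, Hsd11b2 at -1.59 ± 0.25 and Foxc2 at -1.57 ± 0.30. Hsd11b2 passed the filter mainly through its R/P arrays (vehicle means of 192 in R/P, 53.66 in H and 71.45 in M). Its differences in this list are therefore a description. In M against H 3 were higher and 1 lower, with Mycn at 1.60 ± 0.33 and Foxc2 at 1.31 ± 0.30. In M against R/P 2 were higher and 1 lower, with Hsd11b2 at -1.26 ± 0.25 and Ccnd1, a cell-cycle cyclin, at 1.23 ± 0.16. The changes in this list went in both directions, and its medians were -0.20, 0.32 and -0.15.

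With CNP, the calls in these lists within a zone were 1 lower and 1 higher gene in H and 0 in R/P and M. Of all tested probe sets 1.7% were called in H, 0.0259% in R/P and 0.0037% in M, in either direction. Ptch1, the receptor, a direct hedgehog target that stands in 2 of the lists, was lower in CNP arrays, at -0.71 ± 0.12 (means of 3127 against 5098, adjusted p = 0.0047), lower in 3 of 3 pairs. That call was lost without the arrays of number 3 (-0.78, adjusted p = 0.071) or of number 4 (-0.59, adjusted p = 0.11), and with arrays centred on their medians (-0.41, adjusted p = 0.50). Scube3, a relative of Scube2, was higher by 2.41 ± 0.22 (means of 1052 against 183, adjusted p = 2.1e-05) and kept its call in 19 of 19 alternatives. In the same comparison 4 of 11 perichondrium, tendon and fibroblast markers and 2 of 7 osteoclast markers were lower, and the summed signal of the former lay between 23010 and 28180 with CNP, below the 31590 to 33730 of the vehicle arrays. Their part in the values of Hhip, Ptch1 and Scube3 in this zone was not tested.

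Last, the genes whose signal ran most like that of each member over the 18 arrays were taken, among 13259 genes and by Pearson correlation on the log2 scale. The arrays share cultures and zones, so these values are descriptions. For Cdon they were Kcnd2 (r = 0.985), Pcp4 (0.981) and Meg3 (0.98). For Boc they were Sfxn5 (0.955), Tet1 (0.952) and Prkd1 (0.943), and for Gas1 they were Creb5 (0.983), Nipa1 (0.971) and Bmp5 (0.969). The next members had looser partners. For Disp1 they were Klf5 (0.865), Capn3 (0.838) and Furin (0.832), and for Hhip Bivm (0.876), Bbs9 (0.852) and Fbxl5 (0.837). For Sufu they were Mcrip2 (0.886), Mfhas1 (0.871) and Tle2 (0.864), and for Shh Atp5md (0.873), 4933416O17Rik (0.852) and 2310061I04Rik (0.843). Between members Cdon and Boc correlated at 0.854 and Boc and Gas1 at 0.678, while Gas1 and Disp1 ran against each other at -0.815.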

How the data were processed

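RNA was measured on 18 Affymetrix MOE430_2 arrays. Values deposited by the authors are 1 signal intensity per probe set on a linear scale (0 to 20519); per the series' design text they were analysed with GeneSpring. The probe summary method is not stated in those labels. Arrays were not on 1 level: they had trimmed means from 158 to 512 (2% trimmed from each end). No detection calls were used. Probe sets of 1 gene measure different stretches, and their levels are not compared with each other.

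Control probe sets (64 of 45101) were left out. Arrays were set to 1 distribution (quantile normalization), and the scale of every test was log2(signal + 16), which understates changes of dim probe sets. The lowest 40% by mean signal (under 68.3) were left out, leaving 27022. Each model was fitted by limma 3.58.1 under R 4.3.3 (lmFit, then eBayes with trend, two-sided), with p-values Benjamini-Hochberg adjusted over these. CNP was compared with vehicle within each zone in a fit of all 18 arrays, and over the means of the 6 cultures; zones and interactions had the culture as a block. The fits were tested on simulated data. P-values of the CNP comparisons measure the spread between cultures, which the labels call independent trials. Those of the zone comparisons and interactions measure the spread left after the culture block, that is, how zone differences vary from culture to culture. Having 3 arrays per group limits the precision.

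Arrays of the same number deviated together in R/P (r = 0.187, 0.378 and 0.154) and in the culture means (0.173, 0.333 and 0.212). They did so less in H (-0.016, 0.089 and 0.124) and M (0.138, 0.119 and 0.061). All arrays of number 3 were hybridized on 1 day and all of numbers 2 and 4 on another. Pairing of cultures and hybridization day therefore cannot be told apart here. No 2 arrays were identical (153 pairs).

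Gene names came from the platform annotation; 34945 probe sets had 1 symbol, 932 several and 9160 none. All 19 member probe sets were described. Pathway genes, each by its brightest probe set, were named where they passed a CNP comparison or were among the 2 largest of their list in a vehicle zone contrast; Arl13b, Grk2 and Pthlh were not analysed here. The members and lists were chosen with earlier results of these data known. Alternatives were other scalings, a pseudocount of 1, no filter, batches (hybridization day, fluidics run), arrays with an aborted log or a differing treatment field, the number as a block, and arrays left out.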

Additional observations from a re-analysis of the deposited data

Results flagged for a closer look

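Of the results given, 2 were noted because the response to CNP itself differed between zones by a test of the interaction (limma, adjusted over all tested probe sets), both for Scube3, a secreted hedgehog carrier. Its response in H minus that in R/P was 2.52 ± 0.29 (adjusted p = 0.0035), with group means of 1052 against 183 in H and 198 against 218 in R/P. This call was lost without the 4 arrays with an aborted log (2.68, adjusted p = 0.066) and without the cultures of number 3 (2.19, adjusted p = 0.12) or of number 4 (2.51, adjusted p = 0.14). Its response in M minus that in H was -1.94 ± 0.29 (adjusted p = 0.018), with means of 119 against 82.3 in M. This second call was lost in 14 of 22 alternatives (highest adjusted p = 0.45). No member interaction passed, and single outlying arrays were not looked for in groups of 3.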

How the results depend on the processing

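Over all alternatives no called member value changed direction, and 23 of the 40 zone calls on members kept their call throughout, including those of Cdon from R/P to H and to M and of both Boc and both zone-patterned Gas1 probe sets from R/P to H. The counts of member calls moved as follows. In vehicle cultures M minus H gave 7 calls, 4 with no normalization and 4 when arrays whose log notes an abort were left out, and 4 to 7 when a replicate was left out. M minus R/P gave 6, 3 with no normalization and 4 to 7 in leave-one-out, and H minus R/P 8, with 6 to 8 in leave-one-out. In CNP cultures M minus R/P gave 3, 5 with each array centred on its median, 5 in a fit of only that treatment's arrays and 3 to 6 in leave-one-out, where 6 came without CNP M number 3. M minus H gave 7 (5 to 9) and H minus R/P 9 (6 to 9). CNP against vehicle in H gave 0 member calls (0 to 1), and all other CNP comparisons and interactions 0 in every alternative. With no normalization the median difference of all probe sets in vehicle M minus R/P was 0.585, against -0.0449 as reported, the largest such shift, which bears on the M comparisons. With the replicate block, CNP member calls stayed at 0 in each zone and in the mean. Calls over all probe sets went from 7 to 54 in R/P and from 4 to 24 in the mean. Without the culture block the zone counts were 8, 7, 6, 9, 7 and 3, as with it. Adding or leaving out these blocks thus changed no call among 195 member values. Hybridization day could not be fitted beside the culture block. The alternative without the 3 arrays of highest actin ratio was added after the data were seen; it lost 3 member calls and gained 2.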
